A study of Mus musculus with 6 samples.

Results

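The genes described here build, load and switch on the replicative DNA helicase, and they were followed in microglia, the macrophages that reside in the brain. They were chosen by symbol, as the rows of the authors' deposited table for Mcm2 to Mcm7, Mcm10, Cdc6, Cdt1 and Cdc45, and all 10 were found among the 23930 genes listed. The set was put together with results of this comparison in view, so every value below is a description of it and none is a test of the choice. Microglia were sorted by flow cytometry from perfused brains of adult C57BL/6 mice, keeping cells with CD11b, low CD45 and no CD206. The Meth group was 3 wild-type mice given 4 injections of methamphetamine at 5 mg/kg, spaced 2 h apart. The Saline group was 3 wild-type mice given 4 injections of saline on the same schedule. The time between the last injection and tissue collection is not given in the sources used here.

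RNA was read with a targeted amplicon panel, in which a primer pair of its own amplifies a short stretch of each gene, on an Ion Torrent instrument. A value therefore depends on how well a primer pair works, and levels of different genes are not read as differences in abundance here. For each gene, the authors' deposited table gives a log2 average for Meth and another for Saline, the fold between them with its sign, and a p-value before and after adjustment for the false discovery rate (FDR). Values of single mice are not in it, so nothing below carries an error over mice, depth per library is unknown, and the p-values are the authors' own. The averages cannot all be plain means of log2 reads, since the authors' deposited table holds averages below 0 for 14 genes in Meth and 1425 in Saline. Which mice carry a difference cannot be told from group averages. In bulk RNA, a change in the number of cells that make a transcript and a change in the amount each cell makes cannot be told apart.

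Each replication origin is prepared once per cell cycle. The origin recognition complex marks the DNA, Cdc6 and Cdt1 bring in the ring of Mcm2 to Mcm7, and the ring stays inactive until Cdc45 and the GINS complex join it at the start of S phase to form the working helicase, with Mcm10 assisting its activation. The MCM, Cdc6 and Cdt1 genes are textbook targets of the E2F transcription factors, which drive them when quiescent cells enter the cycle. Adult microglia are mostly quiescent and renew slowly.

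Because E2F sites are the regulatory feature for which this family is known, the promoter sequences are shown first. Promoter windows of 300 bases (250 before the RefSeq start of a gene and 50 from it on, GRCm38.p6) were matched by symbol for 9 of the 10 genes, all but Mcm4. The E2F motif searched was any of 4 spellings, TTTCCCGC, TTTGGCGC, TTTCGCGC or TTTGCCGC, on either strand, and matches may overlap. The windows of Mcm5 and Mcm6 are given up to the start, since these are the genes at 1 or above with the smallest deposited p-values in the set. Capitals mark the E2F matches.
Mcm5, chr8:75109259-75109508, plus strand: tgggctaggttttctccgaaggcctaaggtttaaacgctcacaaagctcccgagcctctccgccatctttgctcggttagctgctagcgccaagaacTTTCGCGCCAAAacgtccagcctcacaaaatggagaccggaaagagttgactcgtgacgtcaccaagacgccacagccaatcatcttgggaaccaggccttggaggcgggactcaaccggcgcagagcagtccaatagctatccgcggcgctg
Mcm6, chr1:128359706-128359955, minus strand: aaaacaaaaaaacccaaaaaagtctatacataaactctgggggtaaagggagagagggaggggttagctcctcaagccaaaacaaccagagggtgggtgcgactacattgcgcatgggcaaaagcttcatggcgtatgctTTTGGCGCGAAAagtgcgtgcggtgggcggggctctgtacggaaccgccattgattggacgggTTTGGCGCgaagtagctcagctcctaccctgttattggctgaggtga

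Stretches of 30 bases around the matches of the other 4 genes show that the same letters lie on either side of the start. Capitals again mark the E2F matches, and positions count from 1 at the RefSeq start and from -1 before it.
Mcm3, chr1:20820266-20820295, minus strand, bases 18 to 47: tgGCGGGAAAacttgggaagtTTTGGCGCc
Mcm7, chr5:138172030-138172059, minus strand, bases -176 to -147: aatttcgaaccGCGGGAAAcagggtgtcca
Mcm7, chr5:138171849-138171878, minus strand, bases 6 to 35: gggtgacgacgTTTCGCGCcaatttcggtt
Cdc6, chr11:98908002-98908031, plus strand, bases -149 to -120: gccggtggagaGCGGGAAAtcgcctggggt
Cdt1, chr8:122568035-122568064, plus strand, bases 21 to 50: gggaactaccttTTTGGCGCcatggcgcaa

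Of the 9 genes with a window, 6 (66.7%) held an E2F match, and over all 27025 genes with a window the share was 2.6%. The matches of Mcm5 and of the upstream site of Mcm6 were each a pair of overlapping matches on opposite strands. No match stood in the windows of Mcm2, Cdc45 and Mcm10. A second spelling searched, the CCAAT box on either strand, was present for 7 of the 9 genes (77.8%), and for 41.1% of all genes with a window. In Mcm7 a CCAAT box and an E2F match share base 24. A match says that the letters are there and nothing about binding in these cells.

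**Figure D1:**
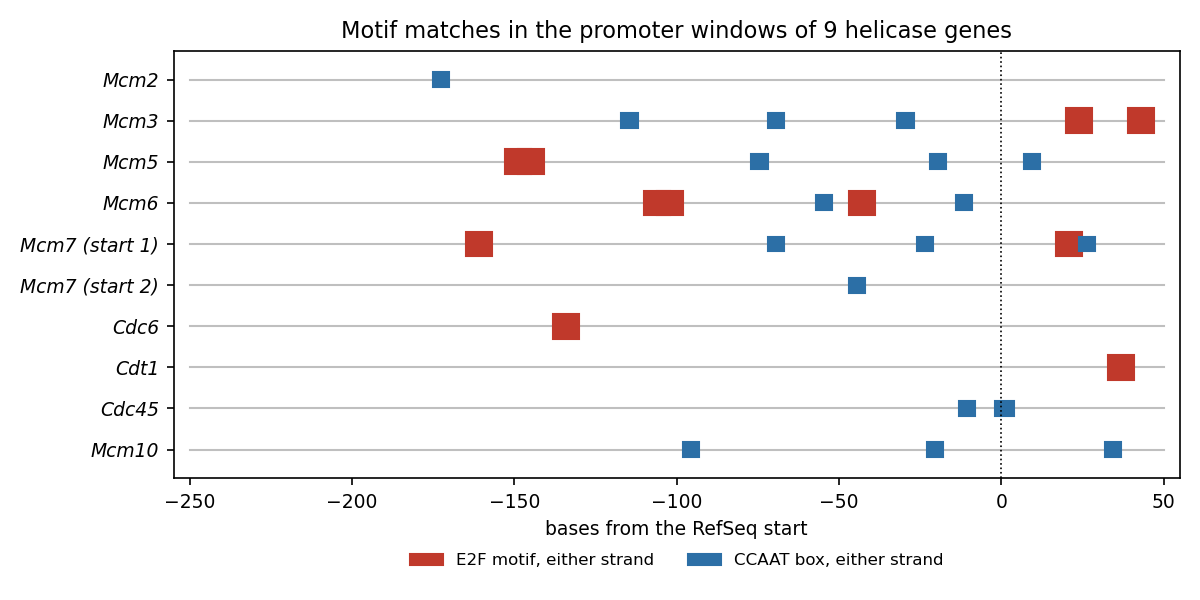
Positions of E2F motif matches (red) and CCAAT boxes (blue) along the promoter windows of 9 helicase genes, in bases from the RefSeq start (dotted line), with both annotated starts of Mcm7. E2F matches lie between base -165 of Mcm7 and base 46 of Mcm3, and the rows of Mcm2, Cdc45, Mcm10 and the second start of Mcm7 hold none.

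Setting Meth against Saline shows how transcripts for the helicase stood in microglia of mice given the drug. In the authors' deposited table, 8 of the 10 helicase genes had a higher average in Meth and 2, Mcm3 and Mcm4, a lower one. The median difference of the 10 genes, Meth minus Saline, was 0.68 on the log2 scale, against 0.00 over all 23930 genes and 0.02 over the 10375 genes that reach 1 in either group. At a deposited FDR under 0.05, 1 of the 10 genes was called, Mcm10, where 2.24% of all genes were called (2.15% as higher in Meth and 0.0878% as lower). At a deposited unadjusted p under 0.05 there were 5 of the 10, Mcm2, Mcm5, Mcm6, Cdt1 and Mcm10, all higher in Meth, where 10.1% of all genes passed (6.38% as higher and 3.76% as lower). Since the set was proposed with this comparison known, nothing is read from these shares.

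The core of the helicase is the ring of 6 related ATPases, Mcm2 to Mcm7, and its genes stood on both sides of 0. Mcm5, a subunit at the gate through which the ring opens, had log2 averages of 4.10 in Meth and 2.30 in Saline, per the authors' deposited table (3.47-fold, unadjusted p = 0.0014, adjusted p = 0.0613). On the approximate linear scale read from the values, RPM (a gene's reads at a common library size), these are 16.1 RPM in Meth and 3.92 RPM in Saline. Its partner across that gate is Mcm2, at 4.85 in Meth and 3.75 in Saline, per the authors' deposited table (2.14-fold, unadjusted p = 0.0324, adjusted p = 0.4253). Both gate subunits were thus listed at more than 2-fold higher in Meth, and neither passed the FDR threshold.

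Mcm4, Mcm6 and Mcm7 form the catalytic side of the ring. The authors' deposited table listed Mcm6 at 5.91 in Meth and 4.32 in Saline (3.01-fold, unadjusted p = 0.0014, adjusted p = 0.0607), or 59.1 RPM in Meth and 19.0 RPM in Saline. Mcm7, the helicase gene with the highest listed average in Meth, stood at 6.14 in Meth and 5.32 in Saline, per the authors' deposited table (1.77-fold, unadjusted p = 0.1069). Mcm4 had the opposite sign, at 3.08 in Meth and 3.73 in Saline, per the authors' deposited table (1.57-fold lower, unadjusted p = 0.0663). This group of subunits thus held 2 genes with a higher average in Meth and 1 with a lower one.

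Mcm3, the partner of Mcm5 in the ring, showed the largest difference of deposited averages in the set, in either direction. On the linear scale the log2 ratio was -2.18 for Mcm3 and larger in size for Mcm10 (3.81), whose averages lie near 0. The authors' deposited table gave Mcm3 3.26 in Meth and 5.32 in Saline, a difference of -2.06 on the log2 scale (4.17-fold lower, unadjusted p = 0.0762, adjusted p = 0.5499). In RPM these are 8.58 in Meth and 38.9 in Saline. Mcm5, with a smaller difference of 1.80, had a far smaller p in the authors' deposited table than Mcm3 (0.0014 against 0.0762). With no values per mouse, whether 1 library sets the average of Mcm3 could not be examined. Its promoter window holds 2 E2F matches, so the motif stood with genes of either sign. Of the 6 genes with a match 5 had a higher average in Meth and 1 a lower one, and the 3 genes with a window but no match had higher averages in Meth.

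**Figure D2:**
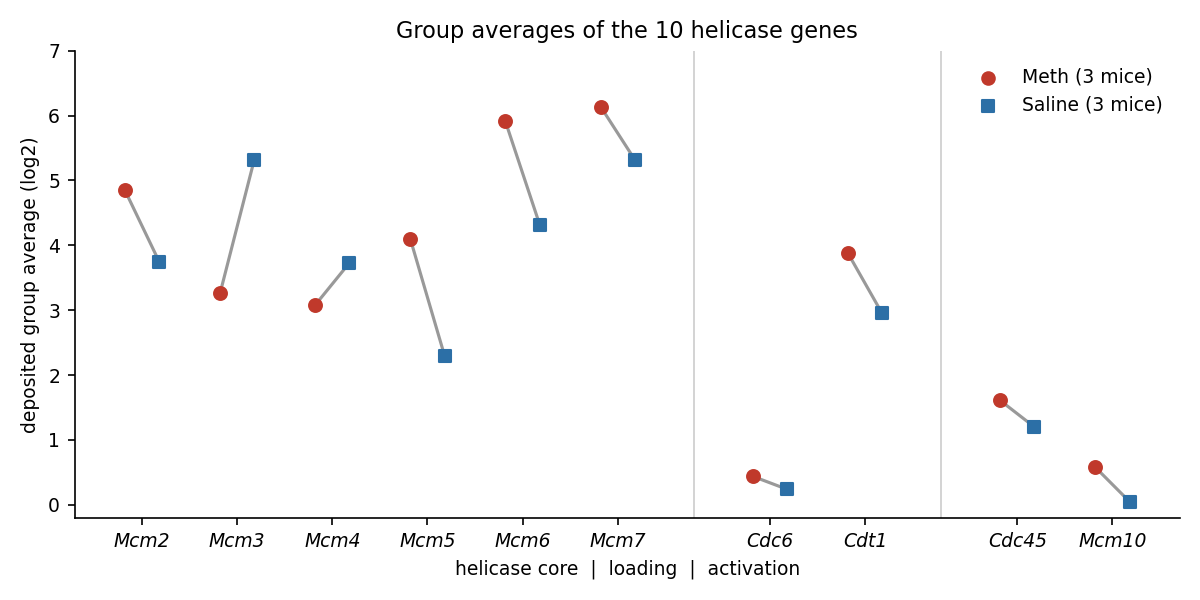
Deposited log2 averages of the 10 helicase genes in Meth (red circles, left of each pair) and Saline (blue squares, right), with no error bars because the table has no values per mouse. Mcm3 and Mcm4 are the genes with the lower average in Meth, and Cdc6 and Mcm10 lie below 1 in both groups.

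Helicase loading rests on Cdc6, the ATPase that joins the origin recognition complex, and Cdt1, which escorts the ring to DNA and is destroyed once S phase begins. In the authors' deposited table, Cdt1 stood at 3.88 in Meth and 2.95 in Saline (1.91-fold, unadjusted p = 0.0488, adjusted p = 0.4887), or 13.7 RPM in Meth and 6.73 RPM in Saline. Cdc6 was near the floor of the panel, at 0.44 in Meth and 0.24 in Saline, per the authors' deposited table (1.15-fold, unadjusted p = 0.552). A poor primer pair and a low transcript level give the same low value, and the fold of a gene this low is understated on a log2 scale with 1 added. The 2 loaders therefore share a direction, but only Cdt1 was measured well above 0.

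Of the activating factors, Mcm10 rose, and it is the gene of the set that passed the FDR threshold. The authors' deposited table listed Mcm10 at 0.58 in Meth and 0.05 in Saline (1.45-fold, unadjusted p = 0.0004, adjusted p = 0.0195). Both averages are under 1, as for 499 of the 536 genes called in the authors' deposited table (93.1%). Cdc45, which joins the ring to make the active helicase, stood at 1.61 in Meth and 1.20 in Saline, per the authors' deposited table (1.33-fold, unadjusted p = 0.1814). Both activating factors had a higher average in Meth, by less than 1 as differences of the deposited averages. For Mcm10 the size depends on the scale, since its linear values of 0.495 RPM in Meth and 0.0353 RPM in Saline give a log2 ratio of 3.81 in place of 0.53, from averages rounded to 0.01 and close to 0.

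The calls changed with the genes over which p-values were adjusted. With the deposited p-values re-adjusted by Benjamini-Hochberg over only the 10375 genes that reach 1 in Meth or Saline, 0 of the 8 helicase genes at that level had an adjusted p under 0.05 (0.0% of these genes did), while 4 had an unadjusted p under 0.05, all higher in Meth, where 14.7% of these genes did (6.46% as higher and 8.19% as lower). Mcm5 and Mcm6 then shared an adjusted p of 0.259, against 0.0613 and 0.0607 in the authors' deposited table, and tied at rank 47 by p. Mcm10 lies under 1 in both groups and is not among these genes.

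Ranked with their sign, the differences of Mcm5 and Mcm6 lay near the top among genes that reach 1 in either group. Of the 10375 genes, 99.6% had a smaller signed difference than Mcm5 and 99.0% a smaller one than Mcm6 in the authors' deposited table. At the other end, 1.33% of the genes had a more negative difference than Mcm3. A difference of at least 1 on the log2 scale in either direction was found for 4 of the 8 helicase genes at this level (Mcm2, Mcm3, Mcm5 and Mcm6), where 17.4% of all such genes had one.

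**Figure D3:**
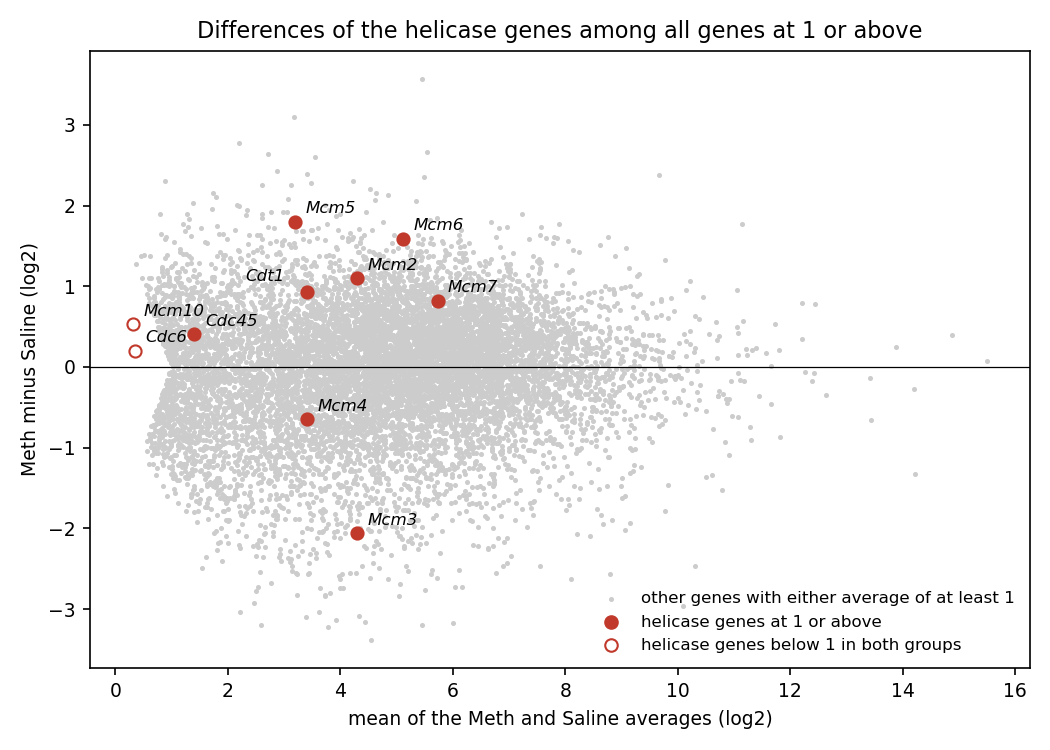
Difference of the deposited averages, Meth minus Saline, against their mean (both log2) for the 10375 genes that reach 1 in either group (grey) and the 10 helicase genes (red, open where both averages are below 1). Mcm5 and Mcm6 are the highest of the red points and Mcm3 the lowest.

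Genes that act on the helicase at neighbouring steps were taken from lists made for the pathway. The origin recognition complex, on which the ring is loaded, had 5 of 6 subunits higher in Meth and 1 lower, with a median difference of 0.31 and 0 with an FDR or unadjusted p below 0.05, per the authors' deposited table. Orc1, its cell-cycle-regulated subunit, was near 0, at 0.25 in Meth and 0.04 in Saline, per the authors' deposited table. Orc4 had the highest listed average of the complex, 6.08 in Meth and 6.17 in Saline, per the authors' deposited table (unadjusted p = 0.4756). None of the 6 subunits differed by as much as 1 on the log2 scale.

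Of 8 factors that control licensing, 6 were higher in Meth and 2 lower, with a median difference of 0.37. An unadjusted p under 0.05 was listed for 2 (25.0%), both higher, where 10.1% of all genes passed (6.38% as higher). Gmnn, whose protein geminin binds Cdt1 and blocks loading after S phase has begun, stood at 3.35 in Meth and 2.13 in Saline, per the authors' deposited table (unadjusted p = 0.0176 and adjusted p = 0.3401). Dtl, the ubiquitin ligase receptor that marks Cdt1 for destruction, stood at 1.12 in Meth and 0.24 in Saline, per the authors' deposited table (unadjusted p = 0.0095 and adjusted p = 0.2420). Cul4a, the scaffold of the same ligase, named here after its values were seen, had the opposite sign, at 4.06 in Meth and 4.60 in Saline, per the authors' deposited table (unadjusted p = 0.1236). Kat7, the histone acetyltransferase that acts at origins, had the highest average in the list, 7.10 in Meth and 6.75 in Saline, per the authors' deposited table.

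Genes that turn the loaded ring into the active CMG helicase (Cdc45, MCM and GINS) and start the fork had 11 of 15 members higher in Meth, 3 lower and 1 equal, with a median difference of 0.67. With an unadjusted p below 0.05, per the authors' deposited table, 4 were higher and 1 was lower (33.3% of the list). Of all genes 10.1% passed, 6.38% as higher and 3.76% as lower. Timeless, of the fork protection complex, stood at 1.80 in Meth and 0.58 in Saline, per the authors' deposited table (unadjusted p = 0.0164), and Wdhd1, which ties the helicase to polymerase alpha, at 2.49 in Meth against 1.12 in Saline, with an unadjusted p of 0.0434. Topbp1, which helps recruit Cdc45, stood at 5.72 in Meth and 4.52 in Saline, per the authors' deposited table (unadjusted p = 0.0484). The lower one was Dbf4, the activating subunit of the kinase that phosphorylates the ring, at 2.15 in Meth and 3.08 in Saline, per the authors' deposited table (unadjusted p = 0.0187). Its kinase partner Cdc7, added after its values were seen, had the opposite sign, at 2.98 in Meth and 2.17 in Saline, per the authors' deposited table (unadjusted p = 0.1267).

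Of the MCM-domain genes outside the replicative ring, Mcm8, which acts in recombination repair, stood at 2.63 in Meth and 1.59 in Saline, per the authors' deposited table (unadjusted p = 0.0450). Its partner Mcm9 stood at 5.40 in Meth and 5.22 in Saline, per the authors' deposited table (unadjusted p = 0.3720). These repair helicase genes were both listed higher, by unequal amounts.

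Among E2F, RB and G1/S genes, 11 of 18 were higher in Meth and 5 lower, with a median difference of 0.23. At an unadjusted p under 0.05 there were 3 (16.7%), all higher. Of all genes 10.1% passed, and of those reaching 1 14.7%, so nothing is read from this count. E2f1, an activating E2F, stood at 2.53 in Meth and 1.53 in Saline, with an unadjusted p of 0.0256 in the authors' deposited table. E2f5, a repressive E2F, stood at 4.56 in Meth and 3.64 in Saline, with an unadjusted p of 0.0059 in the authors' deposited table. Rbl2, a pocket protein of quiescent cells, stood at 5.51 in Meth and 4.45 in Saline, with an unadjusted p of 0.0347 in the authors' deposited table. The other pocket proteins, named after their values were seen, had the opposite sign. Rb1 stood at 5.19 in Meth and 6.43 in Saline, per the authors' deposited table (unadjusted p = 0.056), and Rbl1 at 2.76 in Meth and 3.87 in Saline there (unadjusted p = 0.293). Cdk2, the S-phase kinase, had the highest average of the list, 7.43 in Meth and 6.57 in Saline, per the authors' deposited table (unadjusted p = 0.0513).

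Replication fork and nucleotide genes had 22 of 28 listed members higher in Meth and 6 lower, with a median difference of 0.60, and 8, all higher, had an unadjusted p under 0.05, where 10.1% of all genes and 14.7% of those reaching 1 did. Chaf1a, a subunit of the histone chaperone of the fork, rose, at 1.64 in Meth and 0.72 in Saline, per the authors' deposited table (adjusted p = 0.0430). Adjusted by Benjamini-Hochberg over genes reaching 1, its p was 0.259. Others of the 8 were Uhrf1 (4.04 in Meth, 1.40 in Saline), which maintains DNA methylation behind the fork, the primase subunit Prim1 (3.73 in Meth, 1.81 in Saline) and the polymerase epsilon subunit Pole (2.16 in Meth, 0.43 in Saline), per the authors' deposited table. Pold1, of polymerase delta, stood at 5.46 in Meth and 4.51 in Saline, and Rpa2, of the single-strand binding complex, at 5.02 in Meth and 3.91 in Saline, per the authors' deposited table. Rpa1 had the highest average of the list, 7.26 in Meth and 6.67 in Saline, per the authors' deposited table (unadjusted p = 0.0858). Of 21 listed G2 and mitosis genes, 11 were higher in Meth and 10 lower, with a median difference of 0.07. An unadjusted p under 0.05 was listed for 5 of them (23.8%), 3 higher and 2 lower, where 10.1% of all genes passed. Of the higher ones, Cenpf (0.28 in Meth, -0.10 in Saline) and Kif11 (0.23 in Meth, 0.11 in Saline) lay below 1 in both groups. Among the 12 that reach 1, 3 passed, Cdk1 as higher and Plk1 and Kif20a as lower, where 14.7% of all such genes did.

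The proliferation markers Mki67 and Top2a were near 0 in both groups, while 12 of the 21 G2 and mitosis genes reached an average of 1 in either group. In the authors' deposited table, Mki67 was listed at 0.04 in Meth and 0.26 in Saline, with an unadjusted p of 0.1025. Top2a was listed there, in the authors' deposited table, at 0.43 in Meth and 0.36 in Saline, with an unadjusted p of 0.4645. Cdk1, the mitotic kinase, stood at 3.04 in Meth and 2.30 in Saline, per the authors' deposited table (unadjusted p = 0.0463). Of the opposite sign in the authors' deposited table were the mitotic kinase Plk1, at 1.07 in Meth and 1.48 in Saline with an unadjusted p of 0.0312, and the mitotic kinesin Kif20a, at 1.95 in Meth and 2.94 in Saline with an unadjusted p of 0.0417. Over all 7 lists, 21 of 99 genes were higher and 3 lower at an unadjusted p under 0.05, and 1 (Chaf1a) had an FDR under 0.05. Over all genes, 6.38% were higher and 3.76% lower at that unadjusted threshold. Of the 79 list genes that reach 1 in either group, 18 were higher and 3 lower at it. Among all genes that reach 1, 6.46% were higher and 8.19% lower. The difference between the helicase genes and the G2 and mitosis genes was not tested.

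**Figure D4:**
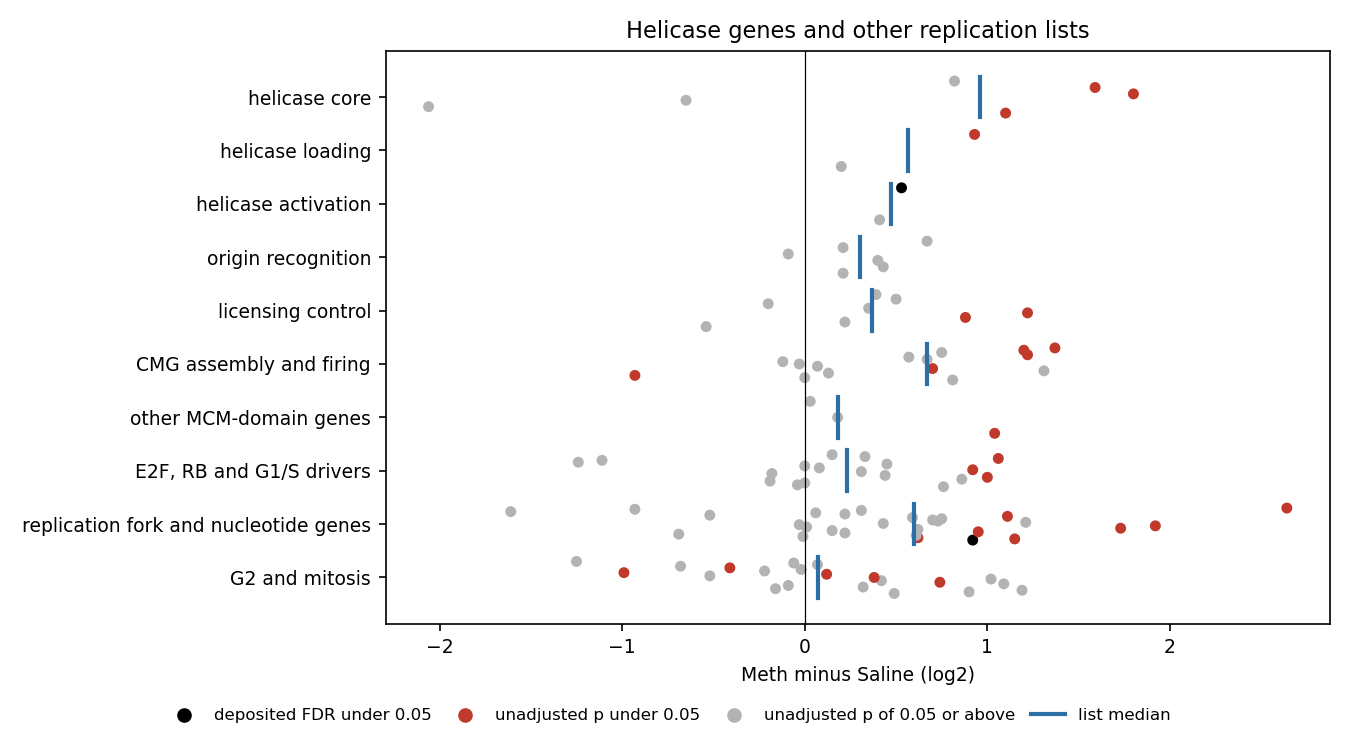
Difference of the deposited averages, Meth minus Saline (log2), for each gene (points) of the 3 helicase groups and the 7 other lists, with the list median as a blue bar. Medians are 0.96 for the helicase core, 0.67 for CMG assembly and firing, 0.60 for fork and nucleotide genes, and 0.07 for G2 and mitosis genes.

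The same motif search gave E2F matches in 7 of 13 E2F, RB and G1/S genes with a window (53.8%), 3 of 9 CMG assembly and firing genes (33.3%), 7 of 24 fork and nucleotide genes (29.2%) and 2 of 6 origin recognition genes (33.3%). Of the G2 and mitosis genes, 1 of 18 (5.56%) held an E2F match and 16 of 18 (88.9%) a CCAAT box. Some helicase genes start close to a gene on the other strand, a pairing looked up after the values had been seen. Within 1000 bp of a helicase gene's start in GENCODE M21 there were 3 protein-coding starts on the opposite strand, those of Prkdc beside Mcm4, Ap4m1 beside Mcm7 and Ufd1 (listed as Ufd1l) beside Cdc45. Prkdc, the DNA-dependent protein kinase catalytic subunit, stood at 4.10 in Meth and 5.43 in Saline, per the authors' deposited table (unadjusted p = 0.1015), the same sign as Mcm4. Ap4m1, an adaptor complex subunit, stood at 5.08 in Meth and 4.23 in Saline, per the authors' deposited table (unadjusted p = 0.0591), the same sign as Mcm7. Ufd1l had the opposite sign to Cdc45, at 4.17 in Meth and 4.43 in Saline, per the authors' deposited table (unadjusted p = 0.8327).

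Markers of the sorted cells and of other cells were read beside these values, and their part in the differences was not tested. All 12 microglial markers were present, with Tmem119 at 10.85 in Meth and 11.75 in Saline and P2ry12 at 9.20 in both groups in the authors' deposited table. Of these 12, 3 were higher in Meth, 8 lower and 1 equal, and their sum was 29060 RPM in Meth and 52330 RPM in Saline. Of the 49 markers read for 7 other cell types, 18 were higher in Meth and 20 lower. Of these markers 37 lay below 1 in both groups, 9 were at 0 in both, and none had an FDR under 0.05 in the authors' deposited table. An unadjusted p under 0.05 was listed for 3 (6.12%), where 10.1% of all genes passed. These 3 were Nes, a progenitor marker, at 4.91 in Meth and 3.35 in Saline (p = 0.0362), Stab1 at 9.94 in Meth and 9.15 in Saline (p = 0.0490), and Cdh5, an endothelial cadherin, at 1.31 in Meth and 3.11 in Saline (p = 0.0231), per the authors' deposited table. Summed levels were 1010 RPM in Meth and 589.1 RPM in Saline for border-associated macrophages, nearly all from Stab1, and 2.81 RPM in Meth and 8.10 RPM in Saline for monocytes and neutrophils. Mrc1, the gene of the CD206 gate, stood at 4.80 in Meth and 4.44 in Saline, per the authors' deposited table. Sums were 67.5 RPM in Meth and 139.1 RPM in Saline for astrocytes and neural progenitors, a sum that includes Nes and is led by Slc1a3, 78.8 RPM in Meth and 98.8 RPM in Saline for endothelial and mural cells, and 21.0 RPM in Meth and 22.0 RPM in Saline for erythroid cells. They were 2.19 RPM in Meth and 0.774 RPM in Saline for oligodendrocyte precursors and 0.0777 RPM in Meth and 0.115 RPM in Saline for lymphocytes. Defining markers listed at 0 in both groups were Lyve1 and Ms4a7 of border-associated macrophages, Ly6g, Mpo and Elane of neutrophils, Cd3e, Ms4a1 and Cd8a of lymphocytes, and Olig2 of oligodendrocyte precursors.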

How the data were processed

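Libraries of sorted microglia from 3 Meth and 3 Saline mice were made with an amplicon transcriptome panel and read on an Ion S5XL, per the labels' protocols. How reads were aligned, counted and normalized, and with which model they were tested, is not given in the sources used here. Per the file headers, the deposited table holds, for each group, the authors' average in log2. The authors' fold is a signed linear score, negative where Saline is higher, per the file headers. The unadjusted p-value and its FDR adjusted form are also the authors' own, per the file headers. It has 0 columns per sample, so replicates could not be compared and depth is unknown. The averages returned to a linear scale, minus 1, sum to 981392 in Meth and 1012049 in Saline. From the size of these sums, averages were read as log2 of RPM plus 1. The Saline sum is above what plain means of such values allow, so the RPM values given here are approximate. Folds match differences of averages within 0.0061 for the helicase genes.

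No test was run here. Deposited values were read for 10 genes, 7 pathway lists and 8 marker lists (Pcna, Ccnb1 and 6 markers are not analysed here, and 1 further marker is not reported here). Members and lists were chosen with earlier results of these data known. Named genes were the members, each list's gene with the highest average, Orc1, Gmnn, Mki67, Top2a, Tmem119, P2ry12 and Mrc1, and up to 6 genes per pathway list with an unadjusted p under 0.05 and an average of at least 1. Alternatives were other thresholds, Benjamini-Hochberg adjustment over genes above a level, centring, linear ratios, and removal of the trend with transcript GC content and length (GENCODE M21). That trend was removed by subtracting the median of each of 20 bins, for GC content and then for length, a step checked on simulated data. Both were taken from the longest transcript of a gene and not from its amplicon, so a trend with the amplified stretch was not examined. Python 3.11.15, numpy 2.4.6 and pandas 2.3.3 were used.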

Additional observations from a re-analysis of the deposited data

How the results depend on the processing

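The number of helicase genes called was 1 at the deposited FDR under 0.05, 3 at an FDR under 0.1 (Mcm5, Mcm6 and Mcm10; 2.58% of all genes passed) and 5 at an unadjusted p under 0.05. It was 0 when p-values were adjusted by Benjamini-Hochberg over genes reaching an average of 1, and 0 over those reaching 3, in part because Mcm10 lies below both levels. The number of genes higher in Meth was 8 after centring and 8 without the GC content and length trend. Centring subtracted 0.02, less than the smallest difference in the set (0.20, Cdc6), so it could not change this count. The median difference of the helicase genes, 0.68, became 0.47 as a mean and 0.93 over members with an average of at least 3. It was 1.00 as a log2 ratio of linear values and 0.61 without the GC content and length trend, and centring left it at 0.66. No helicase gene reversed its sign when the GC content and length trend of the longest transcript was removed, which is not that of the amplicon. A log2 ratio of linear values keeps the sign of the difference by construction, so nothing is read from its signs. As such a ratio Mcm10 moved to 3.81 (0.53 as a difference of averages) and Cdc6 to 0.98 (0.20). Leaving out replicates could not be run, and no paired analysis was possible because the table has no values per mouse. The missing depth and spread limit every value.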
